A study of Mus musculus with 2 samples.

Results

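The genes described here are 10 genes of the mesothelium, the epithelial sheet that lines the body cavities and covers the organs in them, with the transcription factor gene Wt1 among them. They were chosen by gene symbol: Wt1, Upk3b, Upk1b, Msln, Lrrn4, Muc16, Bnc1, Podxl, Crb2 and Gpm6a, which are 10 of the 38926 genes listed in the deposited files. All 10 were found in both libraries. The tissue was the pleuroperitoneal fold (PPF) of the mouse embryo, from wild-type animals of embryonic day 12.5 on a mixed 129s/SvlmJ-C57/BL6J strain background, with no transgene or treatment named. The study has 1 group with 2 libraries of polyadenylated RNA, called replicates 1 and 2, and each pools 2 pairs of folds cut out by hand once heart and lungs were off. The series states as its purpose the ranking of candidate genes from human studies of congenital defects of the diaphragm.

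PPFs are paired folds of mesoderm at the side walls of the embryonic body cavity. They grow across it, carry the connective tissue of the diaphragm and receive the migrating muscle progenitors. Their surface is a coelomic epithelium that becomes mesothelium, in which WT1, a zinc finger transcription factor, is a defining protein, and mice without Wt1 have diaphragm defects. Mesothelial cells carry a lubricating surface of membrane-bound mucins and other glycoproteins, and cells that leave the sheet become mesenchyme, so Wt1 RNA need not come from the lining alone.

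Replicate 1 held 26370253 counts and replicate 2 held 23255957. Levels are given as TPM (count per length, brought to a common sum in both libraries), as mean ± SD where both libraries are combined. Marker genes were read beside the label of the tissue. The mesenchymal genes of the folds were expressed in 10 of 10 cases (at least 1 TPM in both libraries), led by Col1a1, Col3a1 and Pdgfra. The muscle genes were expressed in 9 of 9 cases, led by Actc1, Myog and Myh3. Of all protein-coding genes 63.5% passed this level, and endothelial genes did so in 10 of 10 cases. The lists were chosen with earlier results of these data known, so these counts do not test the label. In this bulk RNA, fewer cells of a type and less RNA per cell cannot be told apart.

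Wt1 lies on the plus strand of chromosome 2 (105126529 to 105173612, GRCm38) and was counted as 1 gene. The count does not separate its splice forms, of which the best known differ by 9 bases at the end of an exon in the zinc finger region, which add the residues lysine, threonine and serine and change how the protein binds DNA. GENCODE M21 holds 5 Wt1 transcripts with the longer end of this exon and 2 with the shorter one, at chr2:105169926-105170018 and chr2:105169926-105170009. Both are shown, from 30 bases before the site to 30 bases into the next exon, with the 9 bases in capitals. The Wt1 level below pools these 2 forms with any other transcript of the gene, of which GENCODE M21 holds 9 in all.
Wt1 longer exon end: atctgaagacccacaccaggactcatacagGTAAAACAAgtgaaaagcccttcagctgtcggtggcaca
Wt1 shorter exon end: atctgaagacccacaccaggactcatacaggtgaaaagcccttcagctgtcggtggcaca

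RefSeq promoters (GRCm38.p6, from 250 bases before to 50 bases after the start) were at hand for 6 of the 10 genes, 7 promoters in all, with 2 for Gpm6a. None was at hand for Wt1, Upk1b, Msln or Podxl, so motifs were not read in these genes. Those of Upk3b and Lrrn4 are shown because these were the 2 genes that differed between the libraries, as described further on. Upk3b lies on the plus strand at chr5:136038246-136038545 and Lrrn4 on the minus strand at chr2:132880813-132881112, and the capitals mark the motif GGAATG on either strand, the core recognised by TEAD factors, which act with the Hippo pathway.
Upk3b promoter: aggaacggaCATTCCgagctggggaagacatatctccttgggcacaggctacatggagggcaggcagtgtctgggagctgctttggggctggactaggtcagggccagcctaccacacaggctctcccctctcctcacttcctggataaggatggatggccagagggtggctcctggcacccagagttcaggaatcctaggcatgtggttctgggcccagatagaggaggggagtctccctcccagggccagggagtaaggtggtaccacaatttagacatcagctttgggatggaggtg
Lrrn4 promoter: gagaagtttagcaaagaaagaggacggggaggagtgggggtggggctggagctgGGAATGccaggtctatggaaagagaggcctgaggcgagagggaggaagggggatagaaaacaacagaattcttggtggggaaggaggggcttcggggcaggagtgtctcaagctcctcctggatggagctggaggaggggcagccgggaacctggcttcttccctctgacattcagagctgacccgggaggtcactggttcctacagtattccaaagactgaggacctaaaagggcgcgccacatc

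GGAATG was found in 3 of the 7 promoters on either strand: at -241 bases from the start of Upk3b (reverse strand), at -196 of Lrrn4 and at -125 of the upstream Gpm6a promoter. Of all 32851 RefSeq promoters of this length, 14.7% hold it. GCGTGGG, the core of sites bound by WT1 and EGR factors, was in 0 of the 7 and in 5.04% of all promoters, and AGATAA, the GATA core, in 0 of the 7 and in 11.2% of all. TATAAA, the TATA box, was in 1 of the 7, at -211 on the reverse strand of the downstream Gpm6a promoter, and in 13.6% of all. No promoter of the set held more than 1 match, so none overlapped, and a match describes letters only. CpG content ran widely: the observed over expected CpG ratio was 0.98 in the Bnc1 promoter (83.3% G + C, 50 CpG), 0.45 in that of Crb2, 0.31 in that of Lrrn4, 0.079 in that of Upk3b (2 CpG) and 0.061 in that of Muc16 (1 CpG), against a median of 0.38 over all promoters.

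All 10 genes passed 1 TPM in both libraries, as did 63.5% of protein-coding genes, and their means ran between 4.86 and 231 TPM, a 47.6-fold span. Upk3b was the highest, followed by Podxl, Wt1 and Lrrn4, while Msln, the gene of mesothelin, was the lowest. Of the 10, 9 stood at 10 TPM or more in both libraries, against 46.4% of the 21410 protein-coding genes, and 5 lay above the median of the 13594 expressed protein-coding genes (26.8 TPM). Muc16 is among the 9, and its level rests on the short gene model described below. The median of the 10 was 25.7 TPM in replicate 1 and 27.1 TPM in replicate 2. The 10 together held 20722 and 18665 counts, 0.0786% and 0.0803% of the libraries, and summed to 614 and 657 TPM.

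**Figure D1:**
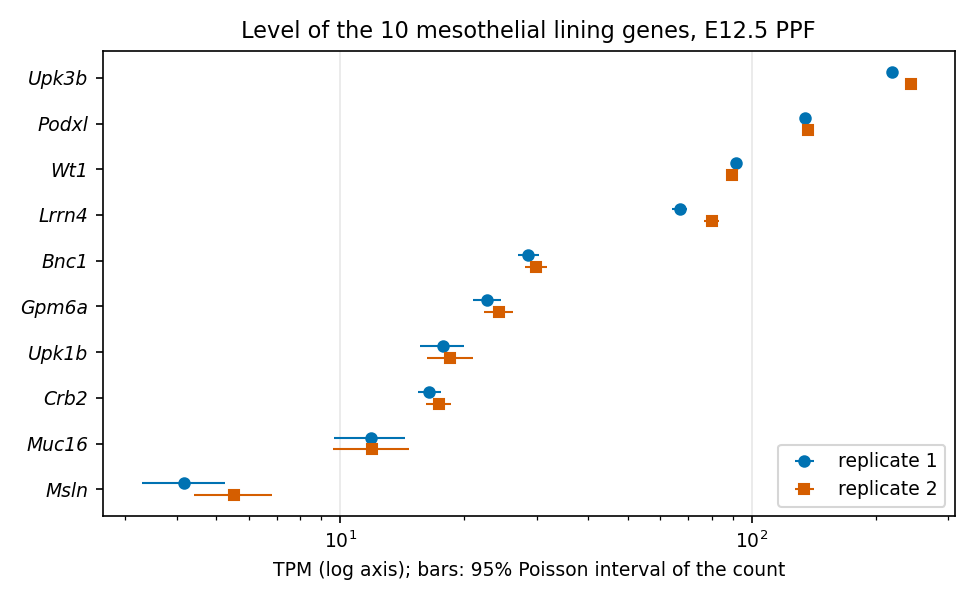
Level of each gene in TPM (horizontal log axis) in replicate 1 (circles) and replicate 2 (squares), with bars for the exact 95% Poisson interval of the count. The genes run from Upk3b at 219 and 243 TPM down to Msln at 4.18 and 5.53 TPM, in the same order in both libraries.

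Among the transcription factors, Wt1 had 4817 counts in replicate 1 and 4042 in replicate 2, or 91.6 and 89.8 TPM (90.7 ± 1.33 TPM, n = 2). Both libraries put it near the same value, above 84.8% of the expressed protein-coding genes. Its counted length, 6195 bases, equals that of all its GENCODE M21 exons joined. This is 200% of its longest transcript (3090 bases). A shorter length would raise its TPM and lower the ratios to Wt1 given below. Wt1 shares no exon bases with another GENCODE gene. Before its start the files list 4 short features named WT1-AS, for an antisense RNA, which lie 1075 to 4478 bases away and held 2 to 11 counts each, 18 in replicate 1 and 28 in replicate 2.

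Bnc1 encodes basonuclin 1, a zinc finger protein of keratinocytes, germ cells and mesothelium (chromosome 7, 81966672 to 81992299). It had 1131 and 1010 counts, or 28.6 and 29.9 TPM. Per length it stood at 0.313 of Wt1 in replicate 1 and 0.333 in replicate 2. An antisense gene at its start, 4833418N17Rik, shares 98 bases with it (2.11% of its exon bases) and had 2 and 1 counts.

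The uroplakins are membrane proteins best known from the plaques on the bladder surface, where tetraspanin uroplakins pair with single-span ones. Upk3b, a single-span uroplakin and a marker of mouse mesothelium (chromosome 5, 136038496 to 136045303), had 4363 and 4147 counts, or 219 and 243 TPM. Its level per length was 2.39 times that of Wt1 in replicate 1 and 2.71 times in replicate 2, and above that of 96.1% of expressed protein-coding genes. These ratios depend on the counted lengths: that of Upk3b, 2346 bases, is 66.5% of its longest transcript, and that of Wt1 is 200%. In reads per coding kilobase, scaled to library size, Upk3b stood at 199.8 and 215.4 and Wt1 at 117.8 and 112.1. Upk1b, a tetraspanin uroplakin (chromosome 16, 38773184 to 38800203), had 266 and 238 counts, or 17.7 and 18.5 TPM. Upk3b thus stood more than 10 times above Upk1b in both libraries. The remaining uroplakins were low: Upk1a had 25 and 21 counts (2.25 and 2.21 TPM), Upk3bl 1 count in each library, and Upk2 and Upk3a 0 counts in both. A count of 0 allows up to 0.405 and 0.473 TPM for Upk2 and up to 0.320 and 0.373 TPM for Upk3a in replicates 1 and 2, from a floor of 3 counts per library.

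Podxl encodes podocalyxin, a sialomucin that coats podocytes, endothelium and mesothelium (chromosome 6, 31519488 to 31563981). It had the most counts of the 10, 6281 and 5464, or 135 and 137 TPM. Its relatives Podxl2 (endoglycan, 62.1 and 58.5 TPM) and Cd34 (47.0 and 59.0 TPM), a marker of endothelium and blood progenitors, were lower in both libraries. Crb2, an apical polarity protein of the Crumbs family (chromosome 2, 37776249 to 37799103), had 935 and 844 counts, or 16.5 and 17.3 TPM. The other Crumbs genes were close to nothing, with 1 and 5 counts for Crb1 and 6 and 1 for Crb3. Crb2 shares 113 bases (1.69% of its exon bases) with Dennd1a on the opposite strand, which stood at 26.0 and 27.5 TPM, and reads in the shared bases cannot be told apart, since the strand setting is not known.

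Msln encodes mesothelin, a lipid-anchored surface glycoprotein (chromosome 17, 25748614 to 25754327), and MUC16, the CA125 antigen, binds mesothelin in human cells. Msln had 75 and 85 counts, or 4.18 and 5.53 TPM, above only 14.7% of the expressed protein-coding genes. Its level per length was 0.0456 of Wt1 in replicate 1 and 0.0616 in replicate 2. The related genes Mslnl (1 and 2 counts), Otoa (10 and 12) and Strc (1 and 0) were lower again.

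Muc16 had 104 and 90 counts, or 11.8 and 11.96 TPM, and this level rests on a short gene model. The files count it over 1035 bases on chromosome 9 (18495455 to 18512885), the length of 1 GENCODE M21 transcript of the gene, which is 4.07% of the 25437 bases of the longest transcript. The RefSeq start of Muc16 lies 161718 bases upstream of the counted span. Reads on the long mucin part were therefore outside the count, and the TPM describes the 3′ end of the gene. Of the other membrane mucins, Muc1 stood at 1.76 and 1.64 TPM, and Muc4, Muc15 and Muc20 had 0 to 6 counts per library.

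Lrrn4, a membrane protein with leucine-rich repeats that marks mouse mesothelium (chromosome 2, 132868305 to 132880891), had 2107 and 2157 counts, or 66.8 and 79.9 TPM. Its coefficient of variation over the libraries was 12.6%, below that of Msln (19.7%) and above those of the 8 others, and the median of the 10 was 3.38%, against 5.09% over expressed protein-coding genes. Its relative Lrrn1 was higher (135 and 169 TPM), Lrrn2 lower (24.3 and 24.1 TPM), and Lrrn3 and Lrrn4cl lower still (5.41 and 5.62 TPM, 3.15 and 2.61 TPM). Gpm6a, a neuronal membrane glycoprotein of the proteolipid family that mesothelium also expresses (chromosome 8, 54954728 to 55060877), had 643 and 588 counts, or 22.7 and 24.2 TPM. The counted model of Gpm6a begins at the downstream RefSeq start, 175294 bases after the upstream one. Its relative Gpm6b was also present (26.0 and 31.7 TPM).

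**Figure D2:**
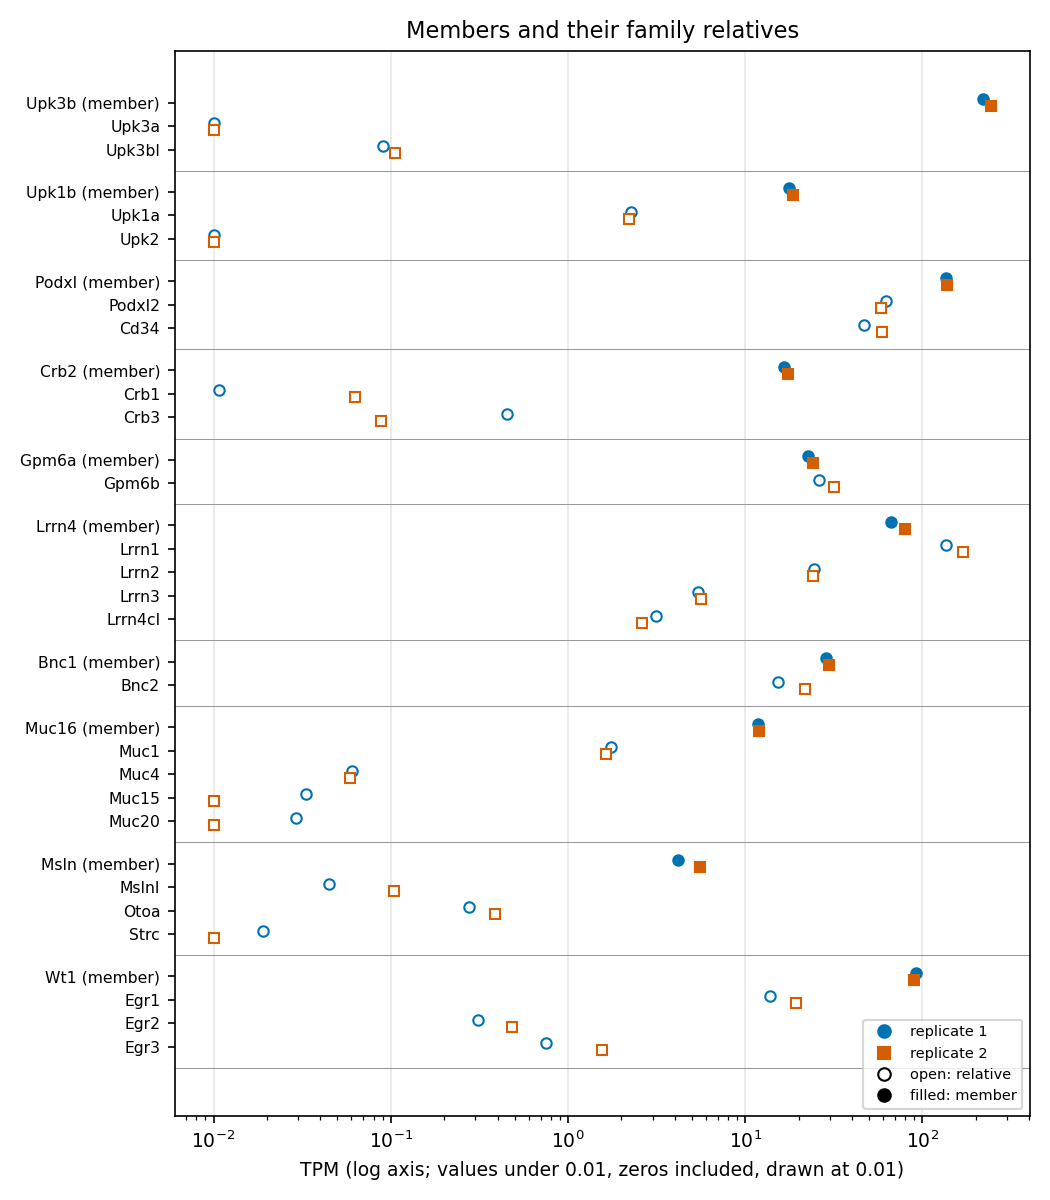
TPM (log axis) of each gene of the set (filled) and its family relatives (open) in replicate 1 (circles) and replicate 2 (squares). Uroplakins are split here into a group of Upk3b, Upk3a and Upk3bl and a group of Upk1b, Upk1a and Upk2. In 8 of the 10 families so drawn the gene of the set was the highest in both libraries. The exceptions were Gpm6a, below Gpm6b, and Lrrn4, below Lrrn1. The place of Muc16 among the mucins rests on its short gene model.

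The order by mean TPM was Upk3b, Podxl, Wt1, Lrrn4, Bnc1, Gpm6a, Upk1b, Crb2, Muc16 and Msln. For all 9 pairs of neighbours the ranges of the 2 libraries did not overlap, but both genes of a pair were read in the same 2 libraries, and an exact paired permutation test over 2 libraries cannot give a two-sided p below 0.5. Upk1b and Crb2 were the closest pair, 1.07-fold apart in mean, and their counting intervals overlapped in both libraries. In replicate 1 the interval was 15.7 to 19.98 TPM for Upk1b and 15.4 to 17.5 TPM for Crb2. The other 8 pairs had separate counting intervals in each library. Counted per base of coding sequence in place of full gene length, Gpm6a (29.2 and 30.3 reads per coding kilobase, scaled to library size) stood above Bnc1 (14.4 and 14.6), and no other pair changed places. An order by longest transcript length was not run. The counted length is 200% of the longest transcript for Wt1 and 66.5% for Upk3b. The places of Upk3b, Podxl and Wt1 can therefore change with the length used.

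**Figure D3:**
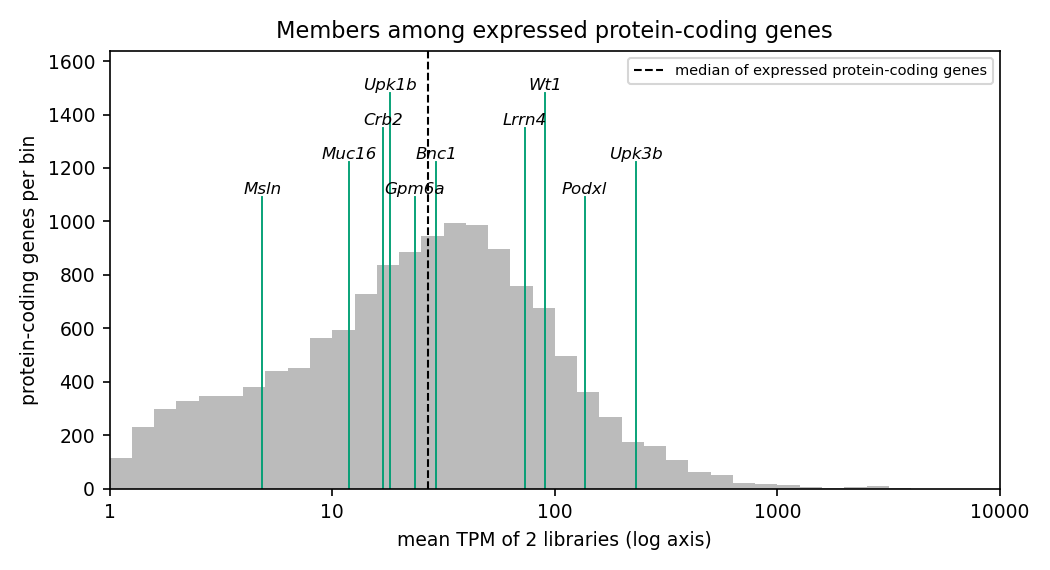
Number of expressed protein-coding genes (vertical axis) by mean TPM of the 2 libraries (log axis), with the 10 genes as vertical lines and the median, 26.8 TPM, dashed. Upk3b, Podxl, Wt1 and Lrrn4 lie in the upper part of the distribution, Bnc1 just above the median, and Gpm6a, Upk1b, Crb2, Muc16 and Msln below it.

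The libraries were compared by the ratio of replicate 1 to replicate 2 of the counts, scaled by TMM factors, with an exact binomial test of the 2 counts and Benjamini-Hochberg adjustment over 19433 genes whose 2 counts summed to 10 or more. It compares 2 pools of the same tissue and genotype, not conditions. The test takes counting error as its only noise, so its p-values are too small for a statement on embryos. Of the 10 genes, 2 were called at an adjusted p under 0.05, Lrrn4 and Upk3b, both lower in replicate 1, and 0 were higher. Over all genes tested, 17.5% were called, 8.85% as lower in replicate 1 and 8.65% as higher. The 2 calls came from the 7 genes of the set with at least 1000 counts, a range of counts in which 30.0% of genes were called.

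For Lrrn4 the log2 ratio was -0.22, with a 95% interval of -0.31 to -0.13 (adjusted p = 1.77e-05, exact binomial test). That is 1.16-fold higher in replicate 2. For Upk3b it was -0.11, with an interval of -0.17 to -0.049 (adjusted p = 0.00409, exact binomial test), or 1.08-fold higher in replicate 2. None of the 10 genes differed by 1.5-fold, which 11.2% of all genes tested did.

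The remaining 8 did not pass the test. For Wt1 the log2 ratio was 0.069 (0.0081 to 0.129; p = 0.0261 and adjusted p = 0.113, exact binomial test). Its interval lay above 0, but its p did not pass after adjustment over all genes. Podxl had a ratio of 0.017 (-0.036 to 0.069). Bnc1 had a ratio of -0.021 (-0.145 to 0.103), Crb2 of -0.037 (-0.172 to 0.099) and Gpm6a of -0.055 (-0.219 to 0.108). The counts of Upk1b (-0.024, -0.282 to 0.235), Muc16 (0.023, -0.397 to 0.448) and Msln (-0.364, -0.833 to 0.100) leave wide intervals. All 3 include the log2 ratio of Lrrn4 (-0.218), so a difference of that size could be missed in these genes. The interval of Gpm6a includes it too, at its lower end. On this scale 7 of the 10 were below 0, as were 47.2% of all genes tested. On the TPM scale, without TMM factors, 9 of the 10 were lower in replicate 1, as were 55.4% of all genes tested; Podxl and Muc16 have ratios above 0 but lower TPM there. The median of the 10 ratios was -0.030, against 0.014 over all genes tested.

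**Figure D4:**
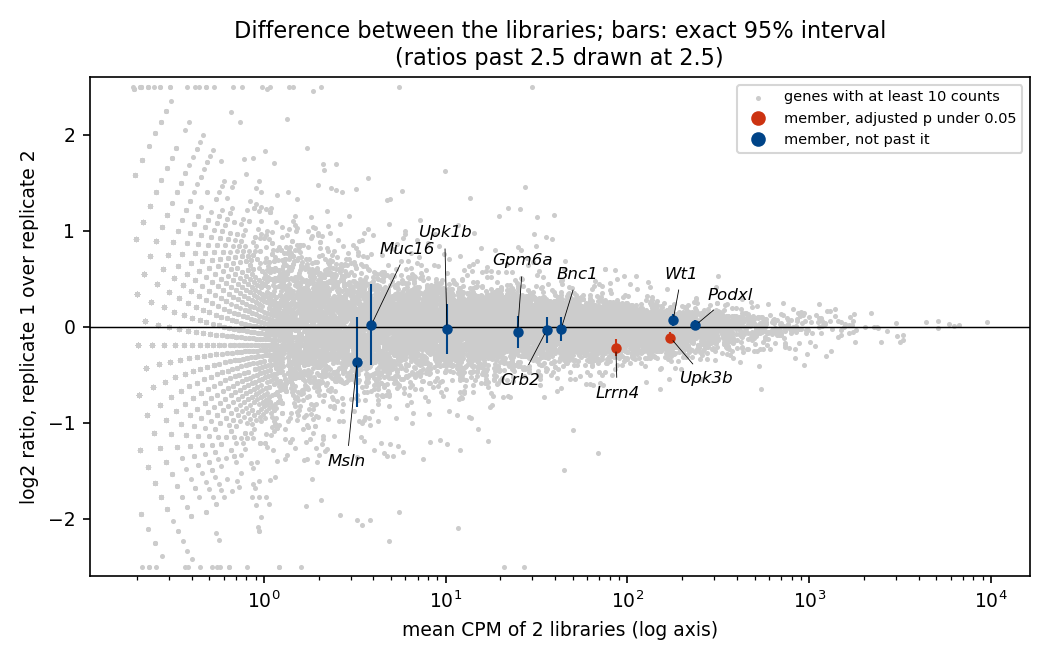
Log2 ratio of replicate 1 to replicate 2 against mean CPM (counts scaled to library size, log axis) for genes with at least 10 counts (grey), with the 10 genes in colour and their exact 95% intervals. Lrrn4 at -0.22 and Upk3b at -0.11 (red) are the 2 called genes, and of the 8 others (blue) all but Wt1, whose interval starts at 0.0081, have intervals that include 0.

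Other genes known from mesothelium and coelomic epithelium were expressed in 19 of 20 cases, with a median of 20.8 TPM. The highest were Sulf1, a heparan sulfate editing enzyme (291 and 396 TPM), Aldh1a2, which makes retinoic acid (269 and 269 TPM), and Ezr, the cytoskeletal linker ezrin (68.4 and 68.8 TPM). Anxa8, an annexin, had 0 counts, which allows up to 0.188 and 0.220 TPM. Between the libraries 2 of these genes were higher in replicate 1, Aldh1a1 (log2 ratio 0.65) and the keratin gene Krt18 (0.39), and 5 were lower, among them the complement gene C3 (-0.81) and Bnc2 (-0.47). These calls, and those of the lists below, stand beside 17.5% called over all genes tested and 30.0% over genes with at least 1000 counts.

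The partners that couple Podxl and Crb2 to the cell cortex were expressed in 15 of 16 cases, led by Rdx (159 and 156 TPM), Msn (97.9 and 111 TPM) and Slc9a3r1 (81.3 and 77.7 TPM), which encode radixin, moesin and the scaffold NHERF1. Only Msn was called between the libraries (log2 ratio -0.15). Wt1 cofactor genes were expressed in 5 of 5 cases: the corepressor gene Basp1 stood at 303 and 301 TPM, Wtip at 64.2 and 60.4 TPM and Ciao1 at 39.0 and 37.6 TPM, and 0 of the 5 were called. Of 17 genes described as Wt1 targets in kidney, gonad, heart or mesothelium, Podxl among them, 12 were expressed. They were led by Igf2 (3426 and 3493 TPM), Pdgfra (360 and 377 TPM) and Aldh1a2. In that list 5 were higher in replicate 1, including Amhr2 (log2 ratio 1.07) and Wnt4 (0.57), and 1 was lower, the integrin gene Itga4 (-0.47).

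Among the 25 family relatives of the 10 genes, 12 were expressed, 1 was higher in replicate 1 (Podxl2, log2 ratio 0.13) and 5 were lower, including Bnc2 and Egr1 (-0.44), an immediate early factor. Epithelial junction and basement membrane genes were expressed in 11 of 18 cases. Their highest were the basement membrane genes Col4a1 (257 and 288 TPM) and Nid1 (243 and 272 TPM) and the junction adaptor gene Tjp1 (90.8 and 102 TPM). Cdh1, the gene of E-cadherin, stood at 0.464 and 0.782 TPM and Cdh2, the gene of N-cadherin, at 65.8 and 77.6 TPM, while the keratin genes of simple epithelia in the mesothelial list stood at 44.5 and 34.9 TPM (Krt18), 33.7 and 31.96 TPM (Krt19), 23.2 and 23.8 TPM (Krt7) and 11.8 and 11.97 TPM (Krt8). The deposited length of Krt7, 7055 bases, exceeds its listed span (chromosome 15, 101411043 to 101411983). Its place among the keratin genes is therefore uncertain. Krt7 had 1391 and 1222 counts, more than Krt18 (529 and 355) and Krt19 (530 and 431). In the junction and basement membrane list 2 genes were higher in replicate 1, including Cldn6 (1.51), and 5 lower, among them Cdh2 (-0.20) and Itga6 (-0.18).

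Several of the 10 genes are also used by other cells, so the markers of those cells were read in the same libraries. Podocytes share Wt1, Podxl and Crb2: of 10 podocyte genes 6 were expressed, led by Kirrel (91.3 and 95.4 TPM) and Synpo (43.4 and 46.4 TPM), but the defining gene Nphs1 had 7 and 9 counts. The list summed to 184 and 192 TPM, with 0 genes called. Urothelium shares the uroplakins: 2 of 6 genes were expressed, Upk1a and Trp63 (1.05 and 1.43 TPM), while Grhl3 (0.634 and 1.18 TPM) missed 1 TPM in replicate 1, the sums were 4.37 and 5.38 TPM, and 0 genes were called. Endothelium shares Podxl: 10 of 10 genes were expressed, led by Cdh5 (64.9 and 82.1 TPM), Cd34 and Kdr (51.4 and 48.1 TPM), and the sums were 330.0 and 383 TPM. Of these, 1 was higher in replicate 1 (Kdr, 0.13) and 4 lower, including Pecam1 (-0.50) and Cdh5 (-0.30).

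Neurons share Gpm6a: 9 of 13 neuronal and sympathetic genes were expressed, led by Gap43 (24.5 and 33.2 TPM), Nefm (7.01 and 12.7 TPM) and Nefl (6.73 and 12.7 TPM). They summed to 57.7 and 105 TPM, and 10 were lower in replicate 1, including Elavl3 (-2.54) and Dbh (-2.01), with none higher. Mesonephros, gonad and adrenal share Wt1: 4 of 12 genes were expressed, led by Emx2 (20.3 and 8.20 TPM), Amhr2 (10.3 and 5.02 TPM) and Star (3.93 and 6.07 TPM), and they summed to 41.8 and 22.9 TPM. Of these, 7 were higher in replicate 1, including Pax8 (69 and 3 counts) and Cdh16 (20 and 0 counts), and Star was lower (-0.59). Liver, whose capsule is mesothelium, was read through 10 hepatoblast genes: 7 were expressed, led by Afp (58.5 and 150 TPM), Alb (35.9 and 104 TPM) and Trf (24.5 and 41.6 TPM). The hepatoblast genes summed to 143 and 349.9 TPM, and 9 were lower in replicate 1, including Apob (-1.92) and Alb (-1.49).

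Summed TPM was lower in replicate 1 for 12 of the 16 lists, as were Lrrn4 and Upk3b. On the TPM scale 55.4% of all genes tested were lower there too. The sums are without TMM factors, unlike the calls, and some lists share genes. The 12 lists included the other mesothelial genes (922 and 1037 TPM), fold mesenchyme (6241 and 6356 TPM) and muscle (3933 and 4053 TPM), beside the podocyte, endothelial, neuronal and hepatoblast sums above. The mesonephros, gonad and adrenal sum was among the 4 that were higher there. Their part in the ratios of the 10 genes was not tested. Lung and gut epithelial genes were expressed in 3 of 10 cases, Epcam (3.70 and 3.71 TPM), Elf3 (1.89 and 1.38 TPM) and Sox2 (1.44 and 1.18 TPM). Cldn6 (2.11 and 0.731 TPM) did not reach 1 TPM in replicate 2 and alone was called, and the lung regulator gene Nkx2-1 and the gut regulator gene Cdx2 had no counts at all. With the floor of 3 counts this allows up to 0.124 and 0.145 TPM for Nkx2-1 and up to 0.156 and 0.183 TPM for Cdx2. Genes listed for pericardium and epicardium, the mesothelium of the heart, were expressed in 7 of 7 cases, led by Scx (149 and 115 TPM), Sema3d (88.9 and 114 TPM) and Hand2 (21.8 and 25.4 TPM). The lowest was Tbx20 (2.65 and 2.82 TPM). Tbx18 and Tcf21 also stand in the mesothelial list, so the 7 of 7 does not show cells of the heart lining. Of the 7 genes, Scx was higher in replicate 1 (0.41), and Sema3d (-0.32) and Tbx18 (-0.29) were lower. The mesenchymal genes of the folds had 2 higher, Col1a1 (0.026) and Col3a1 (0.023), and 2 lower, Tbx5 and Zfpm2 (both -0.20), and the muscle genes had 1 higher, Myod1 (0.15), and 3 lower, including Myf5 (-0.32) and Pax7 (-0.27).

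**Figure D5:**
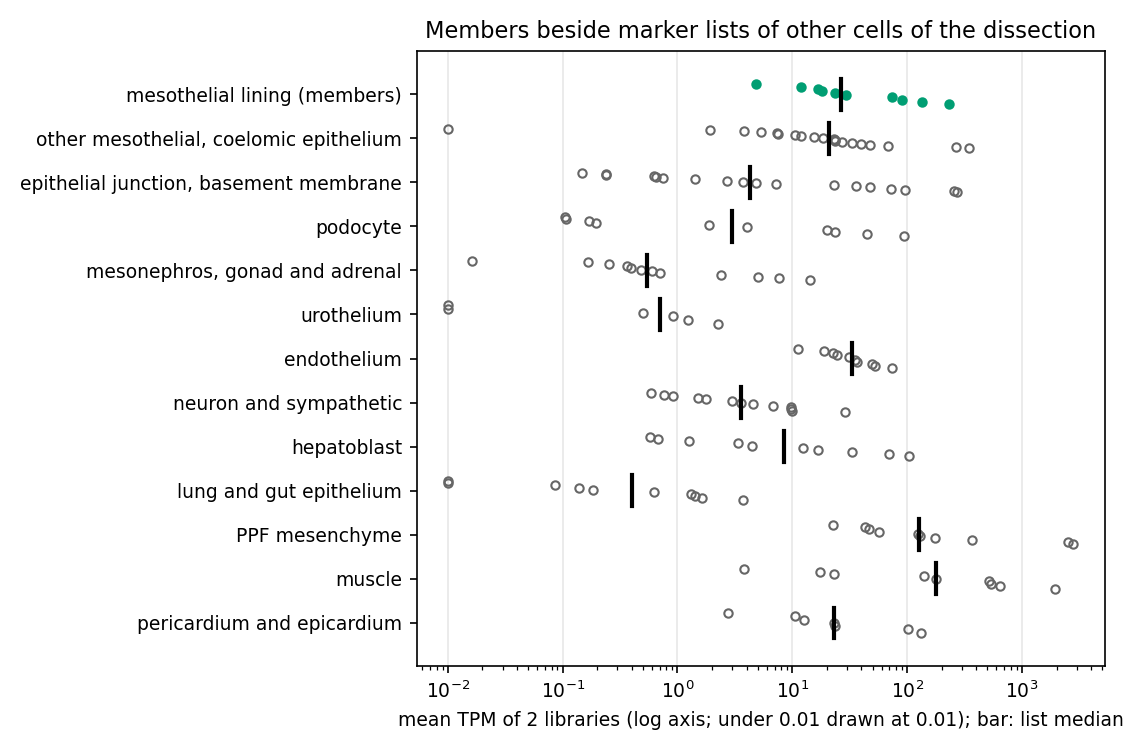
Mean TPM of the 2 libraries (log axis) for each gene of the set (filled green) and of 12 marker lists (open grey), with a bar for the median of each list. The 10 genes have a median near those of the other mesothelial genes (20.8 TPM), pericardium and epicardium (23.0 TPM) and endothelium (33.4 TPM), below those of fold mesenchyme (128 TPM) and muscle (179 TPM), and above those of the 7 other lists; values under 0.01 TPM are drawn at 0.01.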

How the data were processed

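Polyadenylated RNA of 2 libraries was sequenced with a stranded kit, per the labels' protocols. The submitters' processing notes name STAR 2.4.0a, SAMtools 1.3, featureCounts and the build mm9; no strand setting for the counting is stated there. The deposited coordinates were compared with GENCODE M21: of 35656 shared symbols 82.2% had an identical start or end in GRCm38, so positions are given as GRCm38. The authors deposited a raw count and a gene length for each of 38926 genes, and a TPM, which equalled count over length scaled to a common sum (largest difference 4.73e-11). Gene length in bases was used as deposited by the authors. For some genes, Krt7 and Podxl2 among them, this length exceeds the listed span, so their TPM is less certain.

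Scaling used TMM factors (1.0011 and 0.9989) from edgeR 4.0.16 on all genes. Ratios added 0.5 to each count. The exact two-sided binomial test ran in scipy 1.17.1 and was tested on simulated data. The simulated counts held counting error only, as the test assumes, so this does not cover variation between pools. No quasi-likelihood test was possible, since 1 group of 2 libraries leaves no contrast. Intervals are exact (Clopper-Pearson or Poisson, 95%) and, like the floor of 3 counts, cover counting error only, because PCR copies cannot be told from separate molecules here. Nothing in the labels says whether the pools came from separate litters, so the spread between libraries may be partly technical. Protein-coding genes were identified by symbol in GENCODE M21 or by RefSeq synonym.

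The members and the 16 gene lists were chosen with earlier results of these data known. Named were all members, and of each list the 3 highest, those with 0 counts in both libraries and up to 2 called genes with the largest ratio in each direction; a few genes that this rule names are not reported here. The family relatives, the WT1-AS features, Nphs1, Cdh1, Krt7, Krt8, Krt19, Sox2, Tbx20, Tcf21 and the neighbours sharing exons were named after their values were seen. Of the listed symbols, Wt1os, Pals1, Patj, Nherf1, Nherf2 and Mymk were not matched and are not analysed here; Pals1, Patj, Nherf1 and Nherf2 are newer names of listed genes.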

Additional observations from a re-analysis of the deposited data

How the results depend on the processing

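The number of genes at 10 TPM or more in both libraries was 9 when TPM was scaled over protein-coding genes or over features of at least 200 bases, and in each library alone; it was 9 at a threshold of 5 TPM and 6 at 20 TPM. Levels moved by 1.20-fold over protein-coding genes and 1.12-fold over features of at least 200 bases, alike for all 10 genes. Without replicate 1 or without replicate 2 they were 0.861 to 1.14 times the mean. The order of the 10 genes was the same in each library alone, and 8 of 10 kept their place by coding length, an alternative added after the data were seen. Coding length from RefSeq proteins and longest transcript length were not run, so the order was not read at those lengths. No other gene model was tried for Muc16, which is among the 9.

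Lrrn4 and Upk3b were the called genes under library totals, DESeq2 1.42.0 size factors, upper-quartile factors and count filters of 1 and 100. With a 1.5-fold ratio as the rule, alone or together with the adjusted p, the number called was 0. The signs of Podxl (0.017) and Muc16 (0.023), neither of them called, turned to -0.014 and -0.0075 with upper-quartile factors; the cause was not tested. An offset of 2 counts changed no sign. A ratio cannot be had without either replicate. No paired analysis was possible because there is 1 group. Depth limits Upk1b, Muc16 and Msln, whose counts were 75 to 266 per library.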
